A study of Mus musculus with 18 samples.

Results

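The gene that encodes PU.1, named Sfpi1 in the GENCODE vM1 annotation of the mouse build mm9, was examined with its closest relatives, Spib and Spic. The locus of each gene was its annotated span plus 30 kb on either side, and these were 3 of 22225 protein-coding loci treated in the same way. Reads of 18 ChIP-seq libraries were counted in 200-bp bins, and a bound site was a window of 600 bp around the summit of bins that passed the call in at least 1 library. Values are normalised reads, the reads in a window scaled to a library of 10000000 reads. The loci of the 3 genes held 27 of the 89092 bound sites of the genome, of which 14 lay at Sfpi1, 13 at Spib and 0 at Spic.

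PU.1 is a transcription factor of the Ets family that binds purine-rich DNA and is needed for the formation of both macrophages and B cells, with macrophages holding more of it. Its gene is controlled by an upstream regulatory element (URE), an enhancer to which PU.1 itself and C/EBP factors bind. Spi-B, the product of Spib, binds much the same DNA as PU.1 and acts in B cells and plasmacytoid dendritic cells, whereas Spi-C, the product of Spic, is best known from the macrophages of the splenic red pulp.

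All libraries came from C10 cells, a mouse pre-B cell line derived from HAFTL cells. Every group, the uninduced cells included, carries the inducible C/EBPα-estrogen receptor fusion (C/EBPαER) marked with GFP, which β-estradiol (β-Est) shuttles into the nucleus, so that the pre-B cells become induced macrophages (iMΦ). Induced cells received β-Est (100 nM according to the labels, another concentration according to the methods of the study) with IL-3 and CSF-1 (10 nM in the labels), and control cells received 0.1% ethanol. C/EBPα (antibody sc-61) was immunoprecipitated at 0 h and at 10, 30 and 60 min and 3, 12, 24 and 48 h post-induction (hpi), giving 8 libraries, whereas C/EBPβ (sc-150) and PU.1 (sc-352) were immunoprecipitated at 0, 3, 12, 24 and 48 hpi, giving 5 libraries each. With a single library for each factor at each time, all from 1 line, no difference between libraries could be tested against replicates. The study's peak-calling command names the PU.1 reads of uninduced cells as merged, so this library may pool several runs, and every PU.1 ratio over 0 h rests on it. The intervals given are exact Poisson or binomial 95% intervals that cover counting error only.

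Depth was 5968544 to 24909437 reads for C/EBPα. The C/EBPβ libraries were shallower, with 2901164 to 5843194 reads, and those of PU.1 had 6574957 to 11349498. A 200-bp bin needed 6 to 14 reads to be called. The C/EBPα libraries of 10, 30 and 60 min had reads of 50 bases from another sequencer, against 36 bases at the other C/EBPα times, so sequencer and early time cannot be told apart. As a check of the labels, the letters TTGCNNAA of a C/EBP motif, searched on both strands, stood in 42.0 to 62.7% of the sites bound in the C/EBP libraries, and in 23.8 to 26.0% of those bound in the PU.1 libraries. The letters GAGGAAGT of a PU.1 motif stood in 8.65 to 14.0% and in 27.9 to 32.1% of these sites, respectively. ChIP libraries do not show whether the cells were pre-B cells or iMΦ, and RNA levels of the 3 genes were not analysed here.

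One library stood apart at the Sfpi1 gene. In the C/EBPβ library of 0 h, reads were raised evenly over a stretch from 16.1 to 12.3 kb upstream of the Sfpi1 start, which holds the URE. In 9 bins of this stretch, this library had 13.8 reads per bin (9 to 20), against 1.15 in 20 bins beside the stretch, a ratio of 12.0. The 9 bins were chosen away from the C/EBPα and PU.1 summits of the main call setting. The same ratio was between 0.802 and 3.64 in the other 17 libraries, the highest being C/EBPβ at 48 h. The chosen bins were not free of PU.1 signal, as the highest held 36 PU.1 reads at 12 hpi and 23 at 24 hpi. Stretches of this kind, in which at least 14 of 17 neighbouring bins exceeded 5 times the genome rate by 3 reads or more, numbered 8 in this library and 4 to 12 in every library. The stretch at the URE was the only 1 of these 8 with none in another library within 20 kb. Such stretches of a single library also occurred elsewhere in the genome, 2 in C/EBPα at 30 min, 1 in C/EBPα at 24 hpi and 1 in PU.1 at 48 hpi. What made this stretch was not tested, and the C/EBPβ values of 0 h at the 3 sites inside it (-15.4, -13.6 and -12.8 kb) are given below with this in mind.

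Distances are given from the start of each gene, with negative values upstream. Of 4 annotated Sfpi1 starts, the most downstream one (chr2:90936937, plus strand) was used, which puts the URE 13.6 kb upstream, inside an intron of the transcripts that start upstream of it. The Sfpi1 locus was 93.4 kb long with 15.0 sites per 100 kb, and the Spib locus, on the minus strand of chromosome 7 with its start at 51787441, was 66.1 kb long with 19.7 sites per 100 kb. The median over all protein-coding loci was 5.38 sites per 100 kb, and 9.42% of loci were at least as dense as Sfpi1 and 2.97% at least as dense as Spib. The Spic locus, on chromosome 10 with its start at 88145768 on the minus strand, was 70.2 kb long, and 17.2% of loci were without a site, as Spic was.

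The central 300 bases of 5 of the sites described below are shown, as read from the plus strand of mm9. Capitals mark matches, on either strand, to the letters TTGCNNAA (C/EBP), GAGGAAGT (PU.1), TGANTCA (AP-1), TGTGGTT (RUNX) and TCCCNNGGG (EBF1), and to 3 shorter Ets motifs that were added after the data were seen. These are the letters AGGAAG, then the letters GGAAGT, and lastly the letters GAGGAA, which overlap the PU.1 letters and each other. The first 4 sites belong to Sfpi1 and the last to Spib.
Sfpi1 -26.0 kb, the site with the most PU.1 reads, chr2:90910751-90911050: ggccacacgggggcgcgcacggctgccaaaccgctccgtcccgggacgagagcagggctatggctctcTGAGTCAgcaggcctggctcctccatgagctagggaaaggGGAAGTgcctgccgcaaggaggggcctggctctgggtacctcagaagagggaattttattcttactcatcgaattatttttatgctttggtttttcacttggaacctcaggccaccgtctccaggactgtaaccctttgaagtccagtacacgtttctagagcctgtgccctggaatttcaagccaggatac
Sfpi1 -15.4 kb, a site where C/EBPα rose and fell in part, chr2:90921351-90921650: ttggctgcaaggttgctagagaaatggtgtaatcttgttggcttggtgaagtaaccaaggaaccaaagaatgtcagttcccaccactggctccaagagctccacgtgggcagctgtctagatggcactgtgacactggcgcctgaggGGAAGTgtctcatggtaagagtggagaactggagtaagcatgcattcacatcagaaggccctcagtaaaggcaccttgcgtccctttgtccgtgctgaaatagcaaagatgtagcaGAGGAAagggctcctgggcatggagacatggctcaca
Sfpi1 -13.6 kb, the URE, chr2:90923151-90923450: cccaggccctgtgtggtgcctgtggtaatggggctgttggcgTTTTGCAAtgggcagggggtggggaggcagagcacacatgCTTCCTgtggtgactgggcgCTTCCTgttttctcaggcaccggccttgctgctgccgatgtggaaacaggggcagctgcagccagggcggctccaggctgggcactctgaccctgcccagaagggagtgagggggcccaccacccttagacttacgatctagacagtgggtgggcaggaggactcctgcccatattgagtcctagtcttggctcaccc
Sfpi1 +1.56 kb, a site bound by both C/EBP factors and not by PU.1, chr2:90938351-90938650: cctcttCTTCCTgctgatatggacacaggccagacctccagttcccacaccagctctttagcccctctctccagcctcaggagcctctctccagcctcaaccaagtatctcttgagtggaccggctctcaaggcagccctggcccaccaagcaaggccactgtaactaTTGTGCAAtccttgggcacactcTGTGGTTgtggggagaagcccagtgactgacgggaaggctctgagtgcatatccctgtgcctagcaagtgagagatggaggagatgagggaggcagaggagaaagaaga
Spib -25.1 kb, a site with a transient C/EBPα signal, chr7:51812351-51812650: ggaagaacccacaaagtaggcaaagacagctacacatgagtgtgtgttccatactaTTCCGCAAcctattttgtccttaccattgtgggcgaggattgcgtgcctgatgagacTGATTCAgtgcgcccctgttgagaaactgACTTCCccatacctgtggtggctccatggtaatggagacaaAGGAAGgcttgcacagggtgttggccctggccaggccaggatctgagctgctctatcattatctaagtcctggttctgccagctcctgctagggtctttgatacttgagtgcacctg
The URE held the C/EBP letters as TTGCAAAA on the minus strand (chr2:90923193-90923200), followed by 2 AGGAAG matches on the same strand. It also held EBF1 letters, TCCCTTGGG on the minus strand (chr2:90923448-90923456). These run past the end of the printed bases and are not in capitals. The +1.56-kb site held TTGCACAA (chr2:90938519-90938526) on the minus strand and RUNX letters from chr2:90938542 on the plus strand, with no PU.1 letters.

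**Figure D1:**
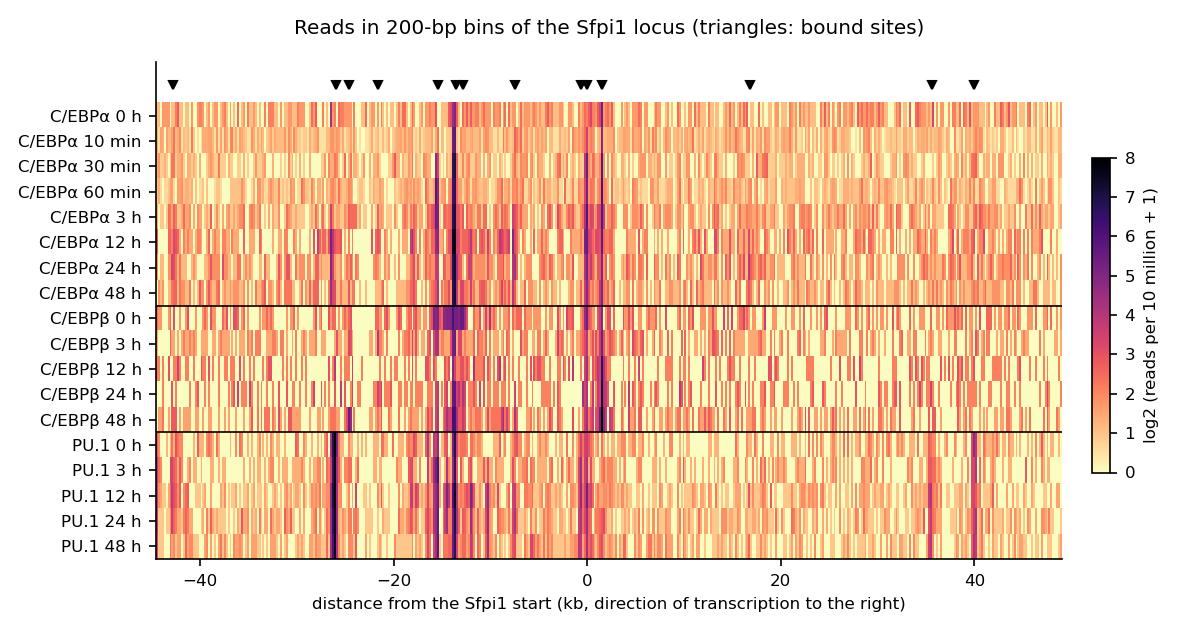
Normalised reads in every 200-bp bin of the Sfpi1 locus (colour, log2 scale) in 18 libraries (rows), against the distance from the Sfpi1 start in kb. Triangles mark the 14 bound sites; the URE is the dark column at -13.6 kb, PU.1 is highest at -26.0 kb, and the broad band of the C/EBPβ 0 h library spans 16.1 to 12.3 kb upstream.

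The URE (chr2:90923001-90923600) was bound in all 18 libraries, which held for 143 sites of the genome (0.161%); 249 sites (0.279%) were bound in the 17 libraries other than C/EBPβ at 0 h. C/EBPα reads at the URE numbered 58.6 (43.8 to 76.9) in pre-B cells and 95.9, 237 and 181 at 10, 30 and 60 min. They numbered 258, 416, 294 and 265 (231 to 304) at 3, 12, 24 and 48 hpi. Thus, every induced library lay above the 0 h library, with the maximum at 12 hpi and a log2 ratio of 2.18 (1.73 to 2.64) at 48 h over 0 h. Of the 9004 sites bound by C/EBPα at 0 or 48 h, 36.9% rose at least as much, but in reads the URE stood near the top, as 0.0101% of all sites had as many C/EBPα reads at 48 hpi.

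PU.1, the product of the gene, was also bound to the URE throughout. Its reads numbered 156, 123, 258, 178 and 155 at 0, 3, 12, 24 and 48 hpi, so that the level at 48 hpi was that of pre-B cells (log2 ratio -0.01, -0.37 to 0.35) and the 12-h library was the highest (0.72 over 0 h, 0.40 to 1.06). At 12 hpi, 48.9% of the sites bound by PU.1 at 0 or 12 h had a ratio at least as high. C/EBPβ reads at the URE numbered 142, 82.1, 41.4, 109 and 162 at the same times. The 0-h value lies inside the long stretch described above, and from 3 hpi on the lowest value was that of 12 hpi (21.4 to 72.3) and the highest that of 48 hpi (129 to 201), with intervals that did not overlap.

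The strongest PU.1 site of the locus was not the URE but lay at -26.0 kb (chr2:90910601-90911200), in intergenic DNA 327 bp from the start of Slc39a13, which encodes a zinc transporter. It held 383, 330, 381, 293 and 273 PU.1 normalised reads at 0, 3, 12, 24 and 48 hpi, which only 0.0168 to 0.242% of all sites matched. PU.1 reads were thus highest in pre-B cells and at 12 hpi and lower at 24 and 48 hpi (log2 ratio 48 h over 0 h -0.49, -0.73 to -0.24), within 2-fold. C/EBPα was called there at 12 hpi only, with 26.8 normalised reads (15.3 to 43.5) against 5.64 to 17.6 in its other libraries, and C/EBPβ was not called. With the bins displaced by 100 bp, C/EBPα was called at this site in 5 libraries, so the single call is not a firm one.

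At -15.4 kb (chr2:90921201-90921800), upstream of the URE, C/EBPα rose and then fell in part. Its reads numbered 6.77 and 5.62 at 0 h and 10 min, 36.9, 81.9 and 77.3 at 30 min, 60 min and 3 hpi, and 51.9, 23.7 and 23.9 at 12, 24 and 48 hpi. The 60-min and 3-h libraries, the only ones called, lay above all others, and the log2 ratio was 3.60 (2.44 to 5.06) at 60 min over 0 h and -1.78 (-2.55 to -1.09) at 48 h over 60 min. Of the sites bound by C/EBPα at either time of each ratio, 15.2% rose as much and 38.0% fell as much. At 48 hpi the reads were still above those of 0 h (1.82, 0.44 to 3.43). PU.1 at the same site had 35.5 normalised reads in pre-B cells, 102 at 3 hpi and 66.3, 68.7 and 73.6 later. All 4 induced PU.1 libraries were above 0 h; at 3 hpi the log2 ratio was 1.52 (0.84 to 2.25), and 6.42% of the sites bound by PU.1 at 0 or 3 h rose as much. The call at this site asks for a 4-fold excess over 10 kb that include the URE, and the 66.3 reads of 12 hpi were not called whereas the 35.5 of 0 h were; with a 2-fold excess PU.1 was called in all 5 libraries. C/EBPβ had 67.7 reads at 0 h, inside the long stretch, and 37.7, 3.45, 22.4 and 25.6 afterwards, with a call at 3 hpi.

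The site at -12.8 kb (chr2:90923801-90924400) was bound in a single library, C/EBPβ at 0 h, with 112 normalised reads (82.6 to 149) against 13.7, 17.2, 32.0 and 25.6 at the later C/EBPβ times. C/EBPα there had 4.09 to 21.4 reads and PU.1 7.60 to 12.8. The site lies inside the long stretch of that library, and without that library the locus had 13 sites.

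**Figure D2:**
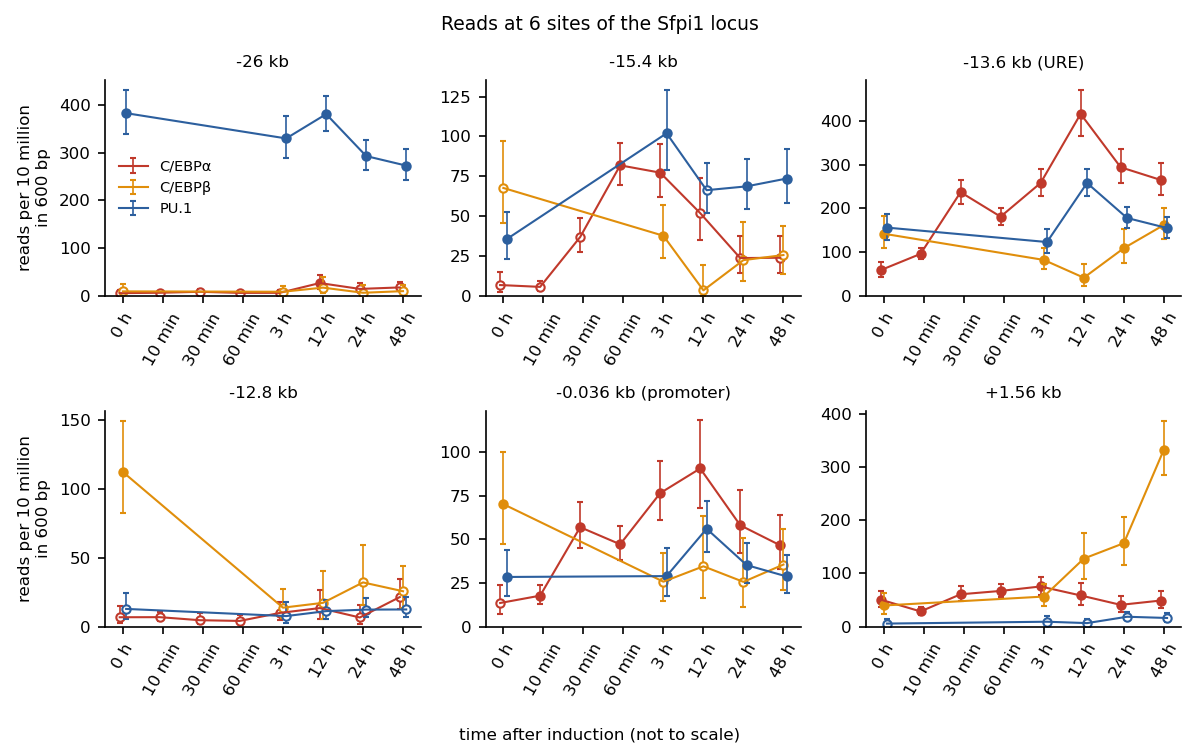
Normalised reads in 600 bp at 6 sites of the Sfpi1 locus, by time after induction, for C/EBPα, C/EBPβ and PU.1; filled points are called libraries and bars are exact Poisson 95% intervals. C/EBPα peaks at 12 hpi at the URE and at 60 min to 3 hpi at -15.4 kb, and C/EBPβ climbs to 333 at +1.56 kb, where PU.1 stays at or below 18.5.

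The promoter site of Sfpi1 lay over the chosen start (-0.036 kb, chr2:90936601-90937200) and was called for C/EBPα in all 7 induced libraries and not at 0 h. Its C/EBPα reads numbered 13.5 at 0 h, 17.7, 56.9 and 47.1 at 10, 30 and 60 min, and 76.4, 90.5, 58.0 and 46.5 at 3, 12, 24 and 48 hpi. At 10 min the log2 ratio over 0 h was 0.38 (-0.56 to 1.44). As at the URE, the maximum was at 12 hpi. The log2 ratio of 48 h over 0 h was 1.78 (0.81 to 2.86), with 3.03 (1.30 to 5.41) in a 200-bp window and 1.02 (0.23 to 1.84) in a 1000-bp window. PU.1 was called at all times with 28.4, 28.9, 56.0, 35.2 and 28.7 reads. The 12-h library was the highest (0.98 over 0 h, 0.23 to 1.79), and 38.3% of the sites bound by PU.1 at 0 or 12 h rose as much. C/EBPβ was called at 0 h only, with 70.1 reads (47.3 to 100), against 25.6 to 35.5 later. In this library the median minus-strand read lay 16 bp downstream of the median plus-strand read, against 94 to 176 bp for C/EBPα and 106 to 255 bp for PU.1 at the same site, so the strands were little separated; what this reflects was not tested.

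A second PU.1 site was found beside the promoter, at -0.636 kb (chr2:90936001-90936600), in an untranslated region 48 bp from the start of another transcript. PU.1 had 18.4 normalised reads there in pre-B cells, uncalled, and 33.5, 38.3, 32.6 and 29.6 in the induced libraries, all called, while C/EBPα stayed at 3.08 to 8.09. The log2 ratio of PU.1 over 0 h was 1.05 (0.12 to 2.08) at 12 hpi, and its intervals at 3, 24 and 48 hpi included 0. At -7.44 kb (chr2:90929201-90929800), in an Sfpi1 intron, C/EBPα arrived late. Its reads numbered 4.51 to 10.0 until 60 min and 24.3, 43.6, 39.6 and 22.6 from 3 hpi on, each of the latter called. PU.1 was called there at 24 hpi only, with 30.8 reads against 10.6 to 25.2 at the other times.

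The site at +1.56 kb (chr2:90938201-90938800), in an intron within the transcribed gene, was bound by C/EBPα and C/EBPβ in all of their 13 libraries and by PU.1 in none. C/EBPβ reads numbered 39.7 (23.1 to 63.6) in pre-B cells and 56.5, 128, 157 and 333 (285 to 387) at 3, 12, 24 and 48 hpi. The C/EBPβ signal was therefore highest in iMΦ, at a log2 ratio of 3.07 (2.35 to 3.88), and was outside the long stretch; 38.9% of the sites bound by C/EBPβ at 0 or 48 h rose at least as much. C/EBPα instead had 50.8 reads in pre-B cells, 28.5 to 75.5 in the first 3 hpi and 58.6, 40.9 and 49.0 later. Its log2 ratio at 48 h over 0 h was -0.05 (-0.71 to 0.60), whereas 84.4% of the sites bound by C/EBPα at either time had a higher or equal ratio. At this site C/EBPα was thus high before induction, as 0.208% of all sites had as many C/EBPα reads at 0 h, and PU.1 had 5.67 to 18.5 reads.

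The other 6 sites of the Sfpi1 locus were called in 1 factor each. At -24.6 kb C/EBPβ had 74.9 normalised reads at 48 hpi (53.0 to 103), against 3.20 to 17.1 before, and the window held 2 matches of the C/EBP letters. At -21.6 kb C/EBPβ was called at 3 hpi with 18.8 reads, against 3.45 to 19.2 at the other times, so this call was not separated from the rest. At +16.8 kb, in Sfpi1 coding sequence, C/EBPα was called at 24 hpi with 19.8 reads, against 1.54 to 13.8. PU.1 was called at -42.8 kb at 12 hpi alone (24.3 reads, with 24.3 at 3 hpi uncalled), where the proteasome subunit gene Psmc3 starts. PU.1 was called at +35.6 kb, in an intron of the cardiac myosin-binding protein gene Mybpc3, from 12 hpi on, with 32.7, 23.8 and 27.7 reads against 12.8 and 16.7 before. The log2 ratio over 0 h was 1.36 (0.27 to 2.60) at 12 hpi and 0.90 (-0.23 to 2.17) at 24 hpi. At +40.0 kb PU.1 was called at all times and was highest in pre-B cells, with 48.2, 35.0, 24.3, 34.4 and 34.4 reads. Only at 12 hpi did the interval of its ratio over 0 h exclude 0 (-0.99, -1.79 to -0.21).

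At Spib, the largest change from 0 to 48 hpi among the called sites was a decrease of PU.1. The site at -2.26 kb (chr7:51789401-51790000) lies in coding sequence of the neighbouring gene Pold1, which encodes the catalytic subunit of DNA polymerase delta, 142 bp from an annotated Pold1 start. PU.1 reads there numbered 255 (219 to 295) in pre-B cells and 163, 173, 81.9 and 37.3 (26.5 to 50.9) at 3, 12, 24 and 48 hpi. The decrease was 2.78 on the log2 scale (ratio -2.78, -3.31 to -2.27), and 2.20% of the sites bound by PU.1 at 0 or 48 h fell at least as much. The site was still called at 48 hpi, and its rank changed from the top 0.664% of all sites at 0 h to the top 17.1%. Reads outside bound sites within 100 kb numbered 1058, 827, 1038, 1071 and 749, so the surroundings were level with 0 h at 12 and 24 hpi and lower at 3 and 48 hpi. C/EBPα (4.61 to 11.7) and C/EBPβ (0 to 11.7) were not called there at any time.

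C/EBPα was bound at 5 Spib sites, none of them at 0 h and none bound by PU.1 at 0 h. At -25.1 kb (chr7:51812201-51812800), 3180 bp from the start of the liver X receptor gene Nr1h2, C/EBPα reads numbered 7.89 and 8.43 at 0 h and 10 min, 44.6, 65.0 and 41.3 at 30 min, 60 min and 3 hpi, and 15.1, 11.9 and 6.29 later. C/EBPα had thus come and gone by 12 hpi, with log2 ratios of 3.04 (1.96 to 4.39) at 60 min over 0 h and -3.37 (-5.02 to -2.11) at 48 h over 60 min. PU.1 was called there only after induction, with 30.4, 29.9, 15.0 and 25.8 reads against 9.93 in pre-B cells. Its calls at 12, 24 and 48 hpi came when C/EBPα was no longer called. At 3 hpi the PU.1 log2 ratio over 0 h was 1.62 (0.32 to 3.10), and 5.52% of the sites bound by PU.1 at 0 or 3 h rose as much. It was 1.59 (0.38 to 3.01) at 12 hpi and 1.38 (0.14 to 2.82) at 48 hpi. In 1000-bp windows the 48-h ratio was 1.02 (-0.06 to 2.21). At 24 hpi it was 0.59 (-0.75 to 2.11), so this call was not separated from 0 h. C/EBPβ was called there at 3 hpi, with 22.2 reads, but uncalled libraries had 27.6 at 12 hpi and 19.2 at 24 hpi, so this call was not separated from them.

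The neighbouring site at -24.5 kb was bound by C/EBPα in the first hour only, with 8.43, 33.1 and 27.6 normalised reads at 10, 30 and 60 min against 2.26 at 0 h and 0 to 6.29 from 3 hpi on. The site at +6.34 kb was called at 30 and 60 min, with 20.8 and 16.9 reads, although 3 hpi had 19.8. The 3 first-hour libraries were those with the longer reads, as stated above.

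The Spib promoter (-0.06 kb, chr7:51787201-51787800) was called for C/EBPα from 10 min to 12 hpi and for neither of the other factors. Its C/EBPα reads numbered 10.2 at 0 h, 12.8, 23.8 and 21.5 in the first hour, 43.1 at 3 hpi and 25.1, 14.5 and 10.1 at 12, 24 and 48 hpi. At 10 min the log2 ratio over 0 h was 0.34 (-0.76 to 1.59). The 48-h library was back at the level of pre-B cells (log2 ratio -0.01, -1.59 to 1.53). At the Sfpi1 promoter the value at 48 hpi was above that of 0 h, with intervals that did not overlap. PU.1 had 2.84 to 9.69 reads at the Spib promoter.

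The site at +3.94 kb (chr7:51783201-51783800), over coding and untranslated exon sequence of Spib, was the one Spib site that kept C/EBPα to 48 hpi. Its C/EBPα reads numbered 10.2 at 0 h, 14.5, 50.8 and 30.7 in the first hour and 55.7, 35.2, 30.3 and 32.7 at 3, 12, 24 and 48 hpi, with a log2 ratio of 1.69 (0.55 to 2.97). PU.1 was called there at 3, 12 and 24 hpi, but its reads (25.5, 30.4, 32.7, 16.7 and 17.2) overlapped within their intervals in all 5 libraries. C/EBPβ was called at 3 and 48 hpi, with 18.8 and 25.6 reads, while 32.0 reads at 24 hpi (15.4 to 58.9) were not called, so the calls were not separated from the rest.

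**Figure D3:**
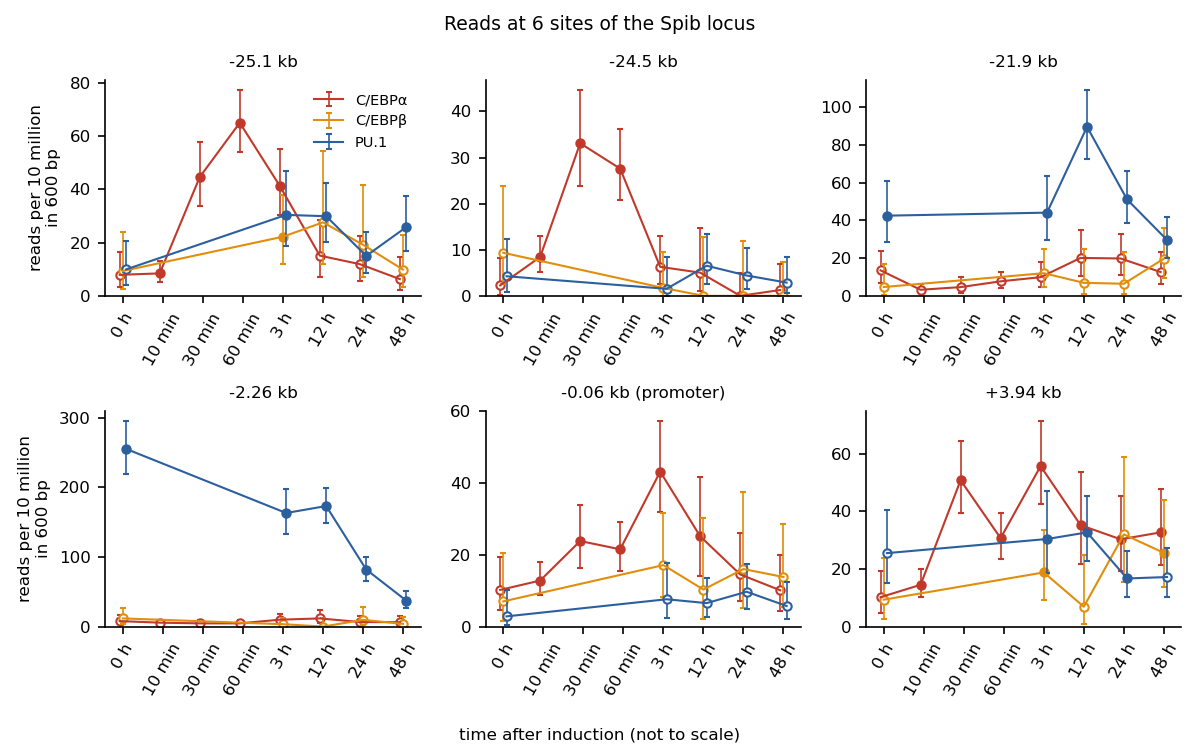
Normalised reads in 600 bp at 6 sites of the Spib locus, by time after induction, for C/EBPα, C/EBPβ and PU.1; filled points are called libraries and bars are exact Poisson 95% intervals. PU.1 falls from 255 to 37.3 at -2.26 kb, and C/EBPα rises and falls within the course at -25.1, -24.5 and -0.06 kb.

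The other 7 sites of the Spib locus were bound by PU.1 alone. PU.1 was called at all times at -21.9 kb, over the Nr1h2 start, with 42.5, 44.1, 89.6, 51.1 and 29.6 normalised reads, and at +5.74 kb, in the Spib untranslated region, with 35.5, 18.3, 45.7, 31.7 and 28.7. At both sites the 12-h library was the highest. Its log2 ratio over 0 h was 1.07 (0.47 to 1.72) at -21.9 kb and 0.37 (-0.36 to 1.12) at +5.74 kb, where the interval included 0. The sites at -16.9, +10.9 and +19.1 kb were called at 12 hpi only (23.3, 20.5 and 13.1 reads), that at +9.94 kb at 12 and 48 hpi and that at +35.3 kb at 12 and 24 hpi (56.9 and 18.5 reads). Thus all 7 were called in the PU.1 library of 12 hpi. That library had the most calls in the genome as well, with 58.9% of all sites and 52463 of the 67525 sites bound by PU.1 at some time.

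Spic had no bound site. In 352 bins, 10.2% of which had no read in any library, the highest bin of a library held 2 to 9 reads, where the call needed 6 to 14. Reads per bin over all 352 bins were 0.578 to 0.813 of the genome mean in the C/EBP libraries. In the PU.1 libraries they were 0.419 to 0.541 of it. The genome mean left out bins without a read in any library, whereas the Spic value counted them, which lowers the Spic value. The highest bin of the PU.1 library of 0 h, with 6 reads, lay at +0.067 kb, over the Spic start, and those of PU.1 at 12 and 48 hpi, with 9 and 8 reads, lay at -29.3 and -29.5 kb. Both places were called under 2 of the other settings, a Poisson threshold of 1e-4 and displaced bins. With the bins displaced by 100 bp, PU.1 was called at the Spic start at 0 h (10 reads in 600 bp) and at -29.4 kb at 12 hpi (13 reads). At the threshold of 1e-4, C/EBPβ at 3 hpi was called as well, at -23.7 kb, with 6 reads. These signals lay at the edge of what this depth can call. The highest bins of the C/EBPα libraries held 3 to 7 reads where 8 to 14 were needed. The nearest site outside lay 44.3 kb upstream, 3502 bp from the start of Arl1, and was bound by PU.1 at 0, 3, 12 and 48 hpi, with up to 24.3 normalised reads, and not called at 24 hpi (13.2).

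**Figure D4:**
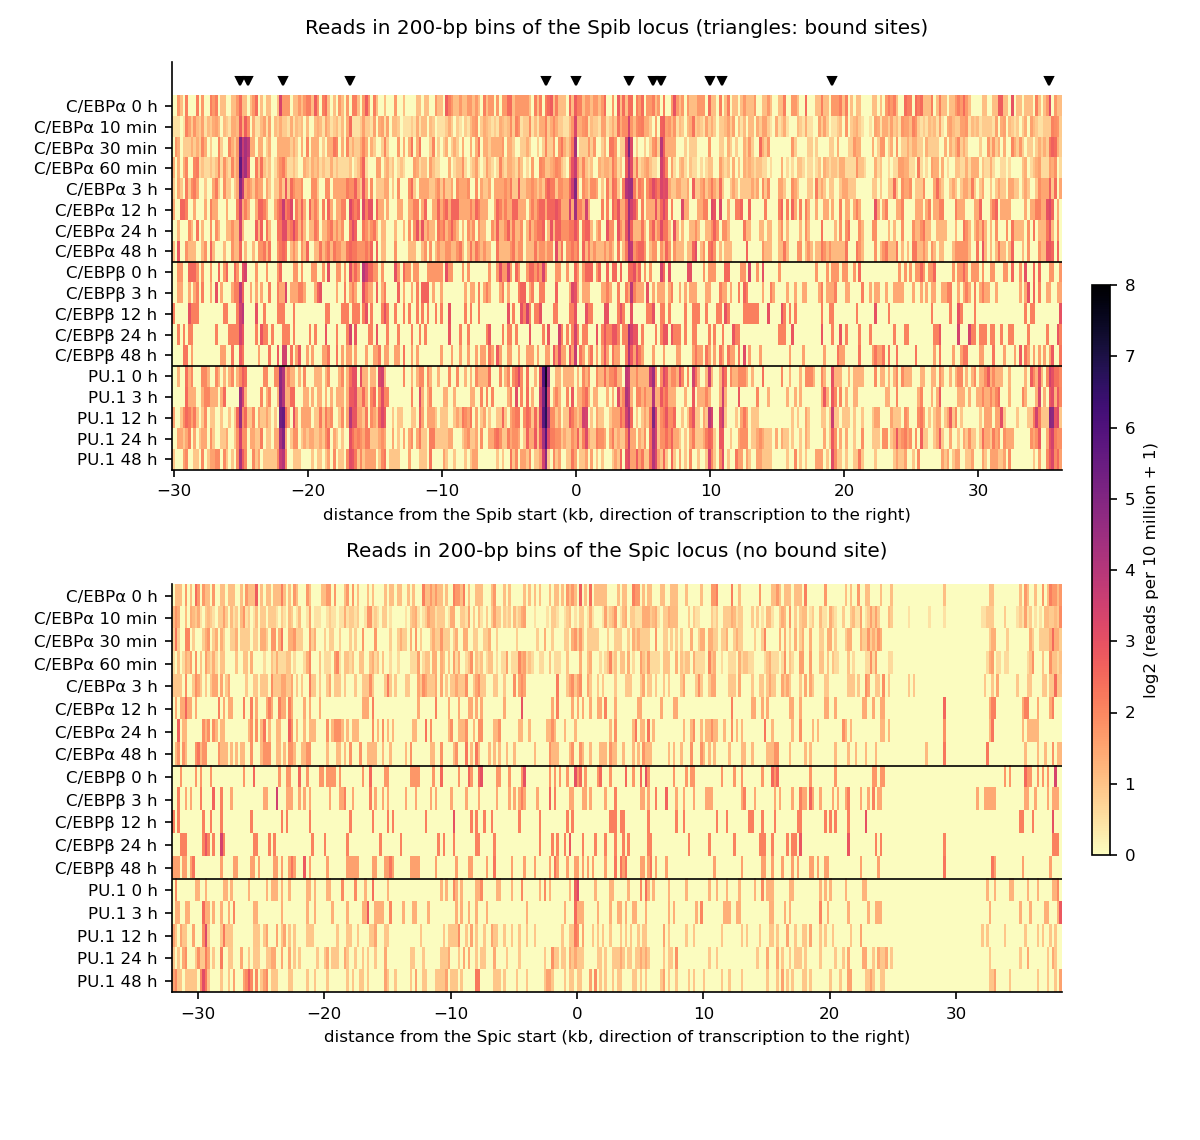
Normalised reads in every 200-bp bin (colour, log2 scale, as for Sfpi1) of the Spib locus (top, triangles mark its 13 sites) and the Spic locus (bottom, no site) in 18 libraries, against the distance from each gene's start in kb. PU.1 at -2.26 kb of Spib fades from 0 to 48 hpi; no Spic bin held more than 9 reads, and the pale part of the Spic locus had few or no reads in any library.

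Taking the 27 sites over time, C/EBPα bound 2 of them at 0 h, both at Sfpi1, against 2.80% of all sites. In the induced libraries it bound 3, 3, 4, 5, 5, 5 and 4 of the 14 Sfpi1 sites at 10, 30 and 60 min and at 3, 12, 24 and 48 hpi. At the same times it bound 4, 5, 5, 3, 2, 1 and 1 of the 13 Spib sites, against 9.11, 16.5, 22.8, 22.2, 12.5, 9.85 and 8.72% of all sites. The number of called sites was thus highest from 3 to 24 hpi at Sfpi1, though the sites called differed between these libraries, and at 30 and 60 min at Spib. The C/EBPα libraries differed in depth, with 24909437 reads at 10 min and 8866865 at 0 h. With the libraries of each factor thinned to its smallest, 12 member sites were again called for C/EBPα at some time. The map then held 11 sites at Sfpi1 and 12 at Spib, in place of 14 and 13. The calls at each time were not counted after thinning. At Spib the C/EBPα reads over all 13 sites were 94.7 at 0 h and 85.9 at 10 min (log2 ratio -0.14, -0.51 to 0.24), so this sum did not rise. At the 4 sites called at 10 min (-25.1, -24.5, -0.06 and +3.94 kb) the ratios were 0.09, 1.90, 0.34 and 0.51, each with an interval that included 0. The summed reads were highest at 3 hpi (235, 207 to 265, against 209, 185 to 236, at 30 min). C/EBPα bound 12 of the 27 sites at some time, against 38.2% of all sites. Of these 12, 7 were not bound at 48 hpi, against 77.2% of all such sites: 3 of 7 at Sfpi1 and 4 of 5 at Spib.

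PU.1 was already bound in pre-B cells at 8 of the 27 sites, against 32.7% of all sites. C/EBPα was bound at 4 of these 8 at some time, against 26.4% of the genome's sites with PU.1 at 0 h. These were 4 of 5 at Sfpi1 and 0 of 3 at Spib. Of these 4, the URE was bound by C/EBPα at 0 h already. The call at -26.0 kb, at 12 hpi only, was not firm. Of the sites with C/EBPα at some time, 9 of 11 had no PU.1 at 0 h at a Poisson threshold of 1e-8. With displaced bins it was 6 of 11, and in the main setting 8 of 12. In the genome it was 26368 of the 34055 sites with C/EBPα at some time, in the main setting. Of the 8 sites that C/EBPα bound without PU.1 at 0 h, 3 were called for PU.1 later (26.2% of all such sites), namely -7.44 kb of Sfpi1 and -25.1 and +3.94 kb of Spib. PU.1 reads at -25.1 kb were higher at 3 hpi than at 0 h (log2 ratio 1.62, 0.32 to 3.10). At -7.44 kb (0.98, -0.03 to 2.11, at 24 hpi) and +3.94 kb (0.25, -0.74 to 1.26, at 3 hpi) the interval included 0. PU.1 bound 19 of the 27 sites at some time, against 75.8% of all sites. Of these 19, 12 were never bound by C/EBPα or C/EBPβ, against 76.8% in the genome. PU.1 bound 5, 6, 7, 8 and 7 Sfpi1 sites at 0, 3, 12, 24 and 48 hpi and 3, 5, 10, 6 and 5 Spib sites, against 32.7, 36.3, 58.9, 45.2 and 42.1% of all sites. At 12 hpi it bound 17 of the 27, and 4 sites were bound by it at that time only, against 14.4% of PU.1 sites. All 3 factors were called at 5 sites at some time (7.60% of all sites), the URE, -15.4 kb and the promoter of Sfpi1 and -25.1 and +3.94 kb of Spib. The promoter had its C/EBPβ call at 0 h only, and the C/EBPβ calls at both Spib sites were not separated from uncalled libraries. After thinning, C/EBPβ was called neither at -15.4 kb of Sfpi1 nor at +3.94 kb of Spib. C/EBPβ was called at 9 of the 27 sites, 7 of them at Sfpi1, against 17.3% of all sites. It bound 4, 4, 2, 2 and 3 Sfpi1 sites at 0, 3, 12, 24 and 48 hpi and 0, 2, 0, 0 and 1 Spib sites, against 1.18, 6.49, 3.79, 7.48 and 13.6% of all sites, and 2 of the calls of 0 h lie in the long stretch.

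The summed reads of each locus differed between Sfpi1 and Spib. At the 14 Sfpi1 sites C/EBPα reads rose from 189 (162 to 220) at 0 h to 772 at 12 hpi and stood at 507 at 48 hpi, a log2 ratio of 1.42 (1.16 to 1.69) at 48 h over 0 h, where all sites of the genome together gave 0.67. PU.1 reads numbered 736, 738, 939, 759 and 692, with a log2 ratio of -0.09 (-0.25 to 0.08), where all sites gave 0.07. At the 13 Spib sites C/EBPα reads rose from 94.7 (75.6 to 117) to 235 at 3 hpi and were 126 at 48 hpi, with a log2 ratio of 0.41 (-0.02 to 0.84). PU.1 reads at Spib numbered 454, 360, 529, 282 and 224, with a log2 ratio of -1.02 (-1.27 to -0.77); of this sum the -2.26-kb site alone held 255 at 0 h and 37.3 at 48 hpi. At 12 h over 0 h the log2 ratio of PU.1 was 0.35 at Sfpi1 and 0.22 at Spib, where all sites gave 0.40. That of C/EBPα at 3 h over 0 h was 1.64 at Sfpi1 and 1.31 at Spib, where all sites gave 1.28. For C/EBPβ the log2 ratio of 48 h over 0 h was 0.52 (0.27 to 0.76) at Sfpi1 and 0.07 (-0.55 to 0.70) at Spib, where all sites gave 1.18. Without the 3 sites inside the long stretch of the 0-h library, the C/EBPβ ratio at Sfpi1 was 1.45 (1.09 to 1.82), and that of C/EBPα, which loses the URE, was 0.74 (0.37 to 1.11). The PU.1 ratio without these sites was -0.24 (-0.44 to -0.04), an interval that excludes 0, unlike that over all 14 sites.

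Among the sites bound at 0 or 48 h, a change of at least 2-fold at 48 hpi was found for C/EBPα at 4 of 5 member sites, all higher, against 67.7% higher and 6.86% lower among all such sites. For C/EBPβ, 3 of 6 were higher and 1 was lower, against 89.9 and 1.83% in the genome; the lower one was -12.8 kb of Sfpi1, in the long stretch. For PU.1, 3 of 12 were higher and 1 was lower, against 29.9 and 18.2%; the lower one was -2.26 kb of Spib. With so few member sites these are counts and no more.

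The rest of the Ets family, 23 genes, served for comparison. All 23 had at least 1 site, with a median of 11.2 per 100 kb; 22 had PU.1 at 0 h and 20 had C/EBPα at some time. Of all protein-coding loci 82.8% had a site, 67.1% had PU.1 at 0 h and 65.0% had C/EBPα at some time, but these loci were shorter (median 75.5 kb, against 99.3 kb for the Ets genes). Among the Ets genes, 5 had more sites per 100 kb than Sfpi1 and 1 more than Spib. The median log2 ratio of 48 h over 0 h was 0.57 for C/EBPα, 0.83 for C/EBPβ and 0.04 for PU.1, against 0.48, 0.80 and 0.09 over all protein-coding loci with a site. Sfpi1 was exceeded in C/EBPα by 3 genes, Etv4 (2.44, 1.92 to 2.99), Gabpa (2.33, 1.02 to 3.89) and Elk1 (1.77, 0.91 to 2.72). Of these 3, only Etv4 had an interval wholly above that of Sfpi1 (1.16 to 1.69). In PU.1, 22 of the 23 genes stood above Spib and only Ehf, the gene of an epithelial Ets factor, was lower (-1.74, -3.15 to -0.47, on 1 site).

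**Figure D5:**
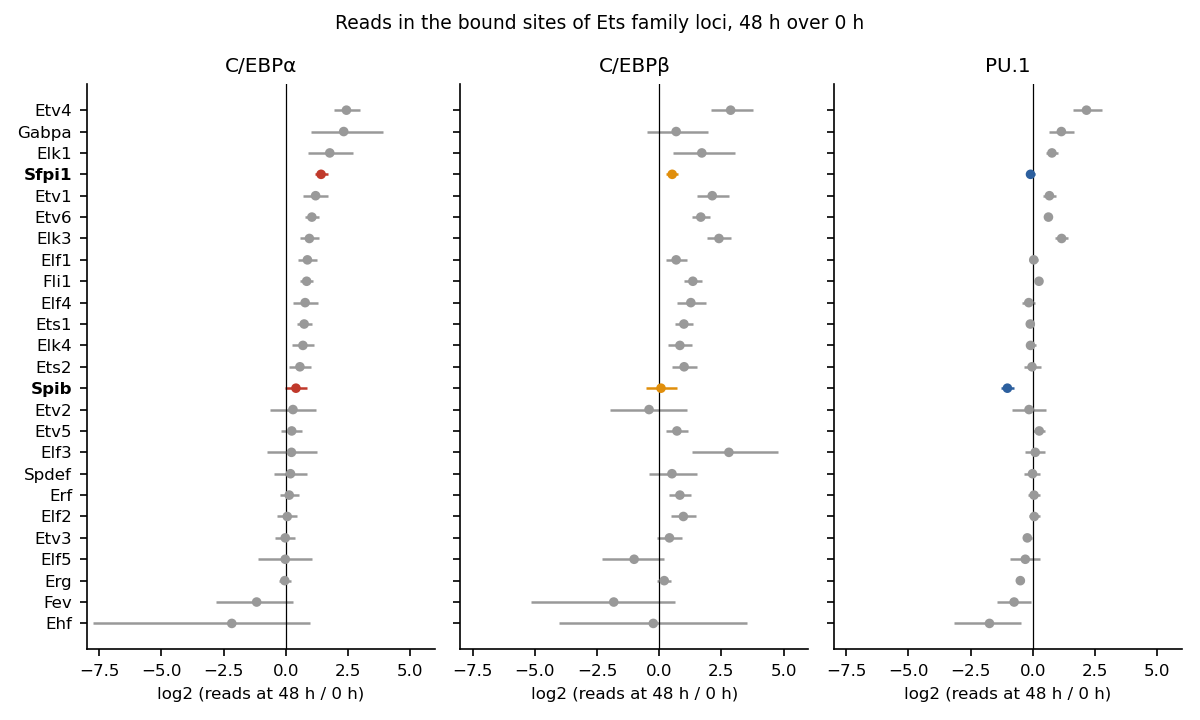
Log2 ratio of the reads in bound sites at 48 h over 0 h for Sfpi1, Spib (coloured) and 23 other Ets family loci (grey), for each factor, with exact binomial 95% intervals as bars; genes are ordered by C/EBPα. By the points alone, Sfpi1 at 1.42 has 3 genes above it in C/EBPα, and Spib at -1.02 has only Ehf below it in PU.1. Bars of several genes overlap those of Sfpi1 and Spib.

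Of 16402 genes compared, each with at least 2 sites, those whose summed reads over the 18 libraries were most like Sfpi1 were Cygb (r = 0.958), Ly6e (0.929), Atn1 (0.927), Grcc10 (0.924) and Tbxa2r (0.923). The measure was Pearson's r of log2 (reads + 1) centred within each factor, so the genes share the libraries and their depth, and Sfpi1 enters with its long C/EBPβ stretch of 0 h. Cygb encodes cytoglobin, and Tbxa2r encodes the thromboxane A2 receptor. Atn1 and Grcc10 both lie on chromosome 6 and had nearly the same reads (PU.1, 715 and 661 at 0 h and 607 and 549 at 48 hpi). They may therefore share sites and not be separate cases. Among the genes most like Spib were Mfsd2a (0.895), the sphingosine-1-phosphate receptor gene S1pr4 (0.891), Creb3l3 and Hist3h2a (both 0.889), whereas Sfpi1 and Spib had r = 0.604 with each other. For Cygb the C/EBPα reads went from 97.0 at 0 h to 345 at 12 hpi and 223 at 48 hpi.

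The letters of the C/EBP motif stood in 10 of the 27 member sites, against 30.7% of all sites. The PU.1 letters stood in 4 (21.1%), AP-1 in 5 (20.6%), RUNX in 3 (16.2%) and EBF1 in 5 (11.6%), 4 of these 5 at Spib and 1 at the URE. Of the shorter Ets letters, AGGAAG stood in 21 sites (74.9% of all sites), whereas the letters GGAAGT stood in 17 (62.5%) and the letters GAGGAA in 18 (64.8%). A match is a description of the sequence and does not show contact with the factor.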

How the data were processed

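ChIP-seq reads of 18 libraries from C10 cells, made with antibodies against PU.1, C/EBPα or C/EBPβ, were analysed, grouped by factor and time as the labels state. The authors called bases with the Illumina software, mapped the reads (ELAND or Bowtie, build mm9) allowing no mismatch, kept those with a unique position and removed identical ones; the deposited files hold 1 line per aligned read. The processing notes also name HOMER. PU.1 at 10, 30 and 60 min, histone marks and expression were not analysed here.

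The 5′ end of each read was moved 75 bp inward, 1 read per position and strand was kept (this removed up to 2.51% of reads, in C/EBPα at 3 hpi), and reads were counted in 200-bp bins. A bin was called at a Poisson p of at most 1e-06 against the genome rate (reads spread over 2000000000 bp), with at least 4 times the mean of the surrounding 10 kb (central 1 kb left out) and a local p of at most 0.0001. A site is 600 bp and belongs to a locus if its centre lies inside. Ratios are of normalised reads with exact 95% intervals. Sites, genes and sequences came from mm9 and GENCODE vM1. Calling was tested on reads simulated for chromosome 1, with a uniform background at the depth of single libraries. Of sites given 12 added reads on average, 87.0% were recovered at the depth of PU.1 at 0 h and 77.7% at that of C/EBPα at 48 h. Calls away from any simulated site numbered 5 at the depth of PU.1 at 0 h, 2 for C/EBPβ at 12 h and 0 for C/EBPα at 48 h. Real backgrounds are uneven (the Sfpi1 locus held 1.84 to 4.44 times the genome mean), so these figures may not carry over to the loci.

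No test between libraries was made. The members and lists were chosen with earlier results of these data known. Sites are shown in full; the genes named for likeness are among the 5 with the highest r for each gene, sequences are printed for 5 sites, and 1 gene is not reported here. Alternatives varied the thresholds, bins, duplicates, depth, window, flank and scaling. Analyses used Python 3.11.15 with numpy 2.4.6, pandas 2.3.3, scipy 1.17.1 and matplotlib 3.10.9.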

Additional observations from a re-analysis of the deposited data

How the results depend on the processing

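Of the values of the main comparisons under the alternatives, 85 moved by less than their interval (counts, by less than 1.5 times) and 19 moved more. None of those whose interval excluded 0 changed sign; the log2 ratio of C/EBPβ at Spib, 0.07, was -0.14 (-0.65 to 0.38) in 1000-bp windows. Spic had 3 sites at a Poisson threshold of 1e-4, 2 with the bins displaced by 100 bp and 4 with 100 kb on either side. With 10 kb on either side Sfpi1 had 9 sites and Spib 7, and with 100 kb they had 23 and 21. The log2 ratio of 48 h over 0 h at the Sfpi1 sites was 1.12 for C/EBPβ in 200-bp windows; in 1000-bp windows it was 0.23 for C/EBPβ and 1.06 for C/EBPα. Without the 3 sites of the long C/EBPβ stretch, chosen after seeing the data, it was 1.45 for C/EBPβ, 0.74 for C/EBPα and -0.24 (-0.44 to -0.04) for PU.1, against -0.09 (-0.25 to 0.08). In 1000-bp windows 2 member sites changed 2-fold in PU.1, against 4. In 200-bp windows C/EBP letters stood in 6 sites, AP-1 in 2 and EBF1 in 1. The shorter Ets letters, added after seeing the data, stood in 21 (AGGAAG), 17 (letters GGAAGT) and 18 sites (letters GAGGAA), against 4 with the full PU.1 letters; fewer letters match more often by construction. At single sites, the log2 ratio of 48 h over 0 h in 200-bp windows was 3.03 for C/EBPα at the Sfpi1 promoter, against 1.78, and 0.88 (-0.01 to 1.84) for C/EBPβ at the URE, against 0.18. The cause of the other moves was not tested.

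Under all 6 alternative call settings the URE was bound in all 18 libraries, +1.56 kb in all 13 C/EBP libraries and -2.26 kb of Spib in all 5 PU.1 libraries. Scaling to reads outside sites moved log2 ratios by 0.05 for C/EBPα, 0.11 for C/EBPβ and 0.02 for PU.1. No paired analysis was possible because each factor and time had 1 library and the labels give no replicate numbers. With 1 library each, no difference has a replicate check, and the shallow C/EBPβ libraries give wide intervals.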

Other observations

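Sites that passed only under other call settings added to the map. With a 2-fold excess over the surroundings in place of 4-fold, PU.1 was called at -14.4 kb of Sfpi1 at 12 hpi, with 57.9 normalised reads, at a second place downstream of the URE, also with 57.9 at 12 hpi, and at -10.2 kb at 24 and 48 hpi, with up to 33.5. With the bins displaced by 100 bp, PU.1 was called at -5.74 kb of Sfpi1 at 48 hpi (20.1) and at -14.6 kb of Spib at 12 hpi (17.7), and C/EBPβ at +9.66 kb of Sfpi1 at 24 hpi (19.2). At a Poisson threshold of 1e-4, PU.1 was called at -14.5 kb of Spib, nearly the same place, at 0 h (19.9), and C/EBPα at -15.9 kb of Spib at 60 min (8.19).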
